A study of Homo sapiens with 8 samples.

Results

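RNA levels of the genes that set the passage through G1, the phase between mitosis and DNA replication, were examined in 2 breast cancer cell lines after knockdown of XBP1 under hypoxia and glucose deprivation. The set holds 10 genes chosen by name: the D-type cyclins CCND1, CCND2 and CCND3, the E-type cyclins CCNE1 and CCNE2, the G-type cyclin CCNG1, and the CDK inhibitors CDKN1B, CDKN1C, CDKN2C and CDKN2D. All probe sets with 1 of these symbols were taken, which gave 21 probe sets for 9 of the 10 genes, out of 41091 probe sets for 19775 genes. CDKN2C had no probe set that carried its symbol alone in the annotation table used here, and is not analysed here. CCNG2, the relative of CCNG1, is not on the list. It was fitted with all genes, but it is described at the end with no p-value and enters no count of called genes from the lists below, because earlier results of these data had singled it out.

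A total of 4 groups of 2 Affymetrix arrays each were available: MDA-MB-231 shXBP1, MDA-MB-231 shCtrl, T47D shXBP1 and T47D shCtrl. MDA-MB-231 is a triple-negative breast cancer line with mesenchymal features, and T47D is a luminal, oestrogen receptor-positive line. shXBP1 is a lentiviral short hairpin against XBP1, which encodes a transcription factor active in the unfolded protein response, and shCtrl is a control hairpin. All 4 groups share the infection, selection with puromycin (2 ug/ml), medium without glucose and 24 h in 0.1% O2, so each comparison is made within stressed cells, and unstressed cells were not analysed here. Each subtype of breast cancer is represented by 1 line, and the labels give no hairpin sequence. The labels call the replicates biological but do not say whether infections or cultures were separate, so that the p-values reflect the spread of these arrays, which may be technical. In RNA from whole cultures, fewer cells in a phase and less RNA per cell cannot be told apart.

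D-type cyclins bind and activate the kinases CDK4 and CDK6 in response to growth signals, and E-type cyclins activate CDK2 later in G1. These kinases phosphorylate RB1 and its relatives, which releases E2F factors and starts the transcription of replication genes. The INK4 inhibitors, among them CDKN2C and CDKN2D, bind CDK4 and CDK6, while the CIP/KIP inhibitors CDKN1B and CDKN1C bind cyclin-kinase complexes, above all those of CDK2. The G-type cyclins CCNG1 and CCNG2 are unconventional cyclins: CCNG1 is a target gene of p53, and CCNG2 is known to restrain the cell cycle and to be induced in cells that stop dividing. In luminal breast cancer CCND1 is a target of the oestrogen receptor and an established oncogene.

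XBP1 read 7.13 and 6.69 on the MDA-MB-231 shXBP1 arrays, against 10.83 and 10.69 on the MDA-MB-231 shCtrl arrays, and 7.52 and 7.16 on the T47D shXBP1 arrays, against 12.41 and 12.56 on the T47D shCtrl arrays (log2 expression, here and for all levels below). On this probe set, the brighter of the pair for XBP1, the knockdown was therefore 14.4-fold in MDA-MB-231 and 35.4-fold in T47D. The other averaged 5.92 over all arrays and passed limma's test in neither line. It changed by 0.19 in MDA-MB-231 (adjusted p = 0.432) and -0.23 in T47D (adjusted p = 0.287). Of 7 mesenchymal markers, 7 lay above the median of all probe sets (5.96) in MDA-MB-231 shXBP1 and 6 in MDA-MB-231 shCtrl, against 2 in T47D with either hairpin. Of 8 luminal markers 8 lay above it in T47D and 3 in MDA-MB-231. PTPRC, the pan-leukocyte marker, averaged 3.88 to 4.09 over the groups, but of 4 measured leukocyte markers 1 lay above the median in each group. Of 6 fibroblast markers 3 lay above it in each group, with COL1A1 averaging 9.12 to 9.97. Replicate arrays correlated at 0.996 to 0.998 across genes. The difference between 3′ and 5′ probe sets of ACTB, a measure of RNA quality, was 0.893 and 1.1 on the MDA-MB-231 shXBP1 arrays, against 1.3 and 1.21 on the MDA-MB-231 shCtrl arrays, and the groups did not overlap. The same difference for GAPDH was 0.304 and 0.320 on the MDA-MB-231 shXBP1 arrays, against 0.270 and 0.334 on the MDA-MB-231 shCtrl arrays, and these overlapped. The part of RNA quality in the results for that line was not tested. CDKN2A, a gene that MDA-MB-231 is known to have lost, read 11.36 and 11.39 on the arrays labelled MDA-MB-231 shXBP1 and 11.57 and 11.58 on those labelled MDA-MB-231 shCtrl, so the line names below are those of the labels.

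Promoters of the genes whose knockdown change differed between the lines are shown first, as far as the RefSeq table (GRCh38.p14) held them, together with that of CCNG2. Each runs from 250 bases before to 50 bases after the start given in that table, 5′ to 3′ on the strand of the gene, and capitals mark ACGTG, the core shared by XBP1 and hypoxia response elements, or CCACG, found in ER stress response elements, on either strand.
CCND3 promoter, chr6:42048639-42048938, minus strand: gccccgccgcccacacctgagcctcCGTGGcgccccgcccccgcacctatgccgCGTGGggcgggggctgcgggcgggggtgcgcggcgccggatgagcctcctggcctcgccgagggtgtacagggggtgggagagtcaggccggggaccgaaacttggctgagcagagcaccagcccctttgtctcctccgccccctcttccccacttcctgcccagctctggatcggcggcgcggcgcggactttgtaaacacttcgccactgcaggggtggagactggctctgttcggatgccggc
CCNG1 promoter, chr5:163437321-163437620, plus strand: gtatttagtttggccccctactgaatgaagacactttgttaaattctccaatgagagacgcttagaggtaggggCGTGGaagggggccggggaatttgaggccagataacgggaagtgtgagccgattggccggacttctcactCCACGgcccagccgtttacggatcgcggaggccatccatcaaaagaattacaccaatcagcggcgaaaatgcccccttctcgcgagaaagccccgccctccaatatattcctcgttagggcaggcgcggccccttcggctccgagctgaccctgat
CDKN2D promoter, chr19:10568930-10569229, minus strand: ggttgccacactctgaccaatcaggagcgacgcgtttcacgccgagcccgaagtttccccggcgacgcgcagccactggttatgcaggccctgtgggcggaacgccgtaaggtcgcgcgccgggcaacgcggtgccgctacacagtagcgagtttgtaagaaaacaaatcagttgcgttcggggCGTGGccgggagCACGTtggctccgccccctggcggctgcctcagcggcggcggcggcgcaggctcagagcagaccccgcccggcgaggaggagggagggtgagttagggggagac
CCNG2 promoter, chr4:77156957-77157256, plus strand: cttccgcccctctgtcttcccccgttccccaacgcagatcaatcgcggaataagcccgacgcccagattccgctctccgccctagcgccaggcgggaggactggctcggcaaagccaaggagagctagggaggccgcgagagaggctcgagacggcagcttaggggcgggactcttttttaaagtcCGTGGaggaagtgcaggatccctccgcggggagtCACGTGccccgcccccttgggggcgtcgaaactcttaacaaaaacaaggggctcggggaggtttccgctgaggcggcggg
For CCND3 the start in the table lies inside the gene, downstream of its outermost annotated 5′ end, and so belongs to another of its transcripts. Positions count from the start of transcription in the table, and each match is given by its leftmost base. The CCNG2 window holds ACGTG on both strands, at -30 and -29, as the palindrome CACGTG, and CCACG on the reverse strand at -64. In the CDKN2D window ACGTG lies on the reverse strand at -54 and CCACG on the reverse strand at -66. The CCND3 and CCNG1 windows hold CCACG only, on the reverse strand at -225 and -196 in CCND3, and in CCNG1 on the reverse strand at -176 and on the strand of the gene at -106. Of 35116 promoters of this length in the table, 21.4% hold ACGTG and 38.1% hold CCACG. In this set of 7 windows, CCACG was in 6 and ACGTG in 3. These include windows not shown: CCNE1, which passed in neither line, holds CCACG, and CDKN2C, which was not measured, holds both. The longer element TGACGTG, held by 1.97% of promoters, was in 0 of the 7 windows of this set (6 listed genes and CCNG2). An E2F-type site (TTTCCCGC, TTTGGCGC, TTTCGCGC or TTTGCCGC, either strand, held by 3.31%) was also in 0 of the 7. CCACG and ACGTG overlap where the letters read CCACGTG, and such matches are counted under both. A match describes letters only. CCND1, CCND2, CCNE2 and CDKN1C are named only.

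Among the D-type cyclins, CCND3 rose with XBP1 knockdown in T47D and CCND1 was lower in MDA-MB-231, in each case by less than 1.5-fold, and the CCND1 call did not hold across its probe sets. CCND3 (chr6:41934933-42050035, GRCh38.p14) read 10.86 and 10.93 on the MDA-MB-231 shXBP1 arrays, against 10.90 and 10.89 on the MDA-MB-231 shCtrl arrays. Its T47D levels were 9.26 and 9.30 on the T47D shXBP1 arrays, against 8.84 and 8.89 on the T47D shCtrl arrays. The T47D groups did not overlap, whereas the MDA-MB-231 groups did. The change was -0.000153 on the log2 scale in MDA-MB-231 (SE 0.08, adjusted p = 0.999) and 0.41 in T47D (SE 0.08, adjusted p = 0.00735), and the difference of -0.41 (SE 0.12) passed narrowly with an adjusted p of 0.0386. The other CCND3 probe set averaged 4.91 over all arrays, below the median of all probe sets. It changed by -0.22 in MDA-MB-231 (adjusted p = 0.412) and -0.12 in T47D (adjusted p = 0.680). With the mean of both probe sets the T47D change was 0.15 (adjusted p = 0.359), and the difference between the lines lost its call in 10 of 14 alternatives.

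CCND1 (chr11:69641156-69654474), the best-known cyclin oncogene of breast cancer, had a pair of bright probe sets that went opposite ways in MDA-MB-231. On the brighter it read 9.50 and 9.71 on the MDA-MB-231 shXBP1 arrays, against 10.03 and 9.99 on the MDA-MB-231 shCtrl arrays, and on the other 9.59 and 9.93 on the MDA-MB-231 shXBP1 arrays, against 9.60 and 9.36 on the MDA-MB-231 shCtrl arrays. The first pair of groups did not overlap with shXBP1 lower, and the other overlapped. In T47D the brighter one read 9.52 and 9.71 on the T47D shXBP1 arrays, against 9.68 and 9.53 on the T47D shCtrl arrays, and these groups overlapped. As a gene, CCND1 changed by -0.41 in MDA-MB-231 (SE 0.11, adjusted p = 0.0469) and by 0.01 in T47D (SE 0.11, adjusted p = 0.951), with a difference of -0.42 (SE 0.16, adjusted p = 0.101). Tested as probe sets, the changes in MDA-MB-231 were -0.41 (adjusted p = 0.0568) and 0.28 (adjusted p = 0.231), so that neither passed. The call of the gene was lost in 11 of 15 alternatives, among them the mean of its probe sets (-0.06, adjusted p = 0.758) and 7 of the 8 fits without 1 array. CCND2 (chr12:4273762-4305353) lay below the median of all probe sets on every array, between 3.81 and 5.30 over its 4 probe sets, and 0 of them passed limma's test in either line, with 0 at an unadjusted p under 0.05. Its brightest probe set changed by 0.31 in MDA-MB-231 (adjusted p = 0.220) and 0.09 in T47D (adjusted p = 0.730).

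CCNE2 fell in both lines, and CCNE1 passed in neither. CCNE2 (chr8:94880224-94896693) read 9.54 and 9.90 on the MDA-MB-231 shXBP1 arrays, against 10.46 and 10.45 on the MDA-MB-231 shCtrl arrays. The T47D levels of CCNE2 were 10.15 and 10.35 on the T47D shXBP1 arrays, against 11.11 and 11.14 on the T47D shCtrl arrays. Both shXBP1 arrays of each line lay below both shCtrl arrays of that line. The fall was 1.66-fold in MDA-MB-231 (log2 -0.73, SE 0.13, adjusted p = 0.00857) and 1.84-fold in T47D (log2 -0.88, SE 0.13, adjusted p = 0.00186). The other CCNE2 probe set gave -0.62 (adjusted p = 0.00521) in MDA-MB-231 and -1.04 (adjusted p = 0.000251) in T47D. The effects of the lines differed by 0.15 (SE 0.19, adjusted p = 0.633) on the brighter probe set and by 0.42 (SE 0.14, adjusted p = 0.0747) on the other, and neither difference passed. The order of the CCNE2 group means ran T47D shCtrl, MDA-MB-231 shCtrl, T47D shXBP1 and MDA-MB-231 shXBP1, with no overlap between neighbours.

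CCNE1 (chr19:29811991-29824312), which shares the partner kinase CDK2 with CCNE2, read 9.21 and 9.11 on the MDA-MB-231 shXBP1 arrays, against 8.82 and 8.94 on the MDA-MB-231 shCtrl arrays. Its T47D levels were 7.69 and 7.42 on the T47D shXBP1 arrays, against 7.68 and 7.34 on the T47D shCtrl arrays, and the groups of this line overlapped while those of MDA-MB-231 did not. Its change was 0.28 in MDA-MB-231 (SE 0.14, adjusted p = 0.239) and 0.05 in T47D (SE 0.14, adjusted p = 0.862), with a dim probe set at -0.23 and -0.03 in the same order.

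**Figure D1:**
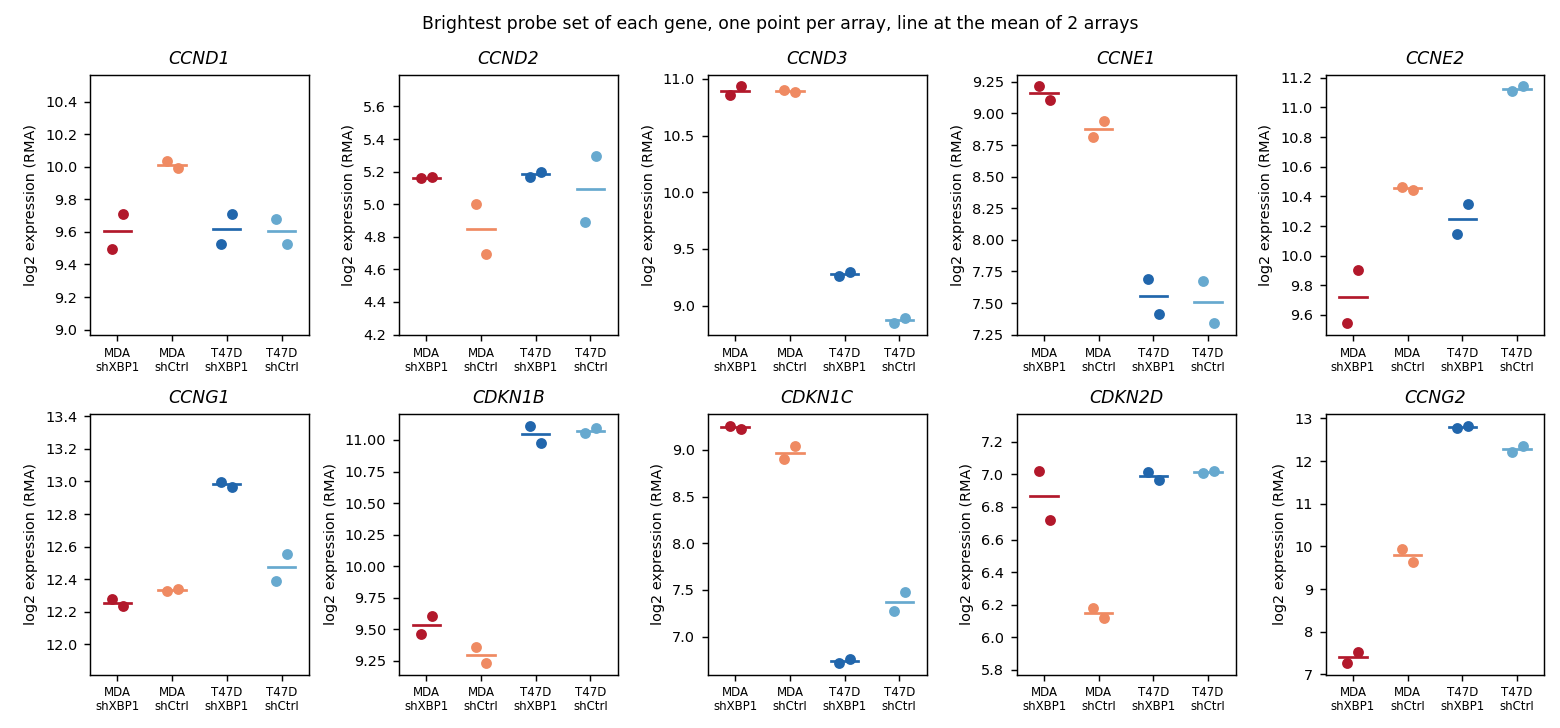
Log2 expression (RMA) of the brightest probe set of the 9 measured genes and of CCNG2, with 1 point per array, a line at the mean of 2 arrays and a scale of its own in each panel. CCNE2 is lower with shXBP1 in both lines, CDKN1C is lower in T47D, CDKN2D is higher in MDA-MB-231, and CCNG2 is lower with shXBP1 in MDA-MB-231 and higher in T47D.

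CCNG1, a target gene of p53, rose in T47D and did not pass in MDA-MB-231. CCNG1 (chr5:163437571-163457640) has 1 probe set here, which read 12.28 and 12.24 on the MDA-MB-231 shXBP1 arrays, against 12.33 and 12.34 on the MDA-MB-231 shCtrl arrays. In T47D the levels were 12.99 and 12.97 on the T47D shXBP1 arrays, against 12.39 and 12.56 on the T47D shCtrl arrays. The T47D shXBP1 arrays lay above all 6 others. The change was -0.08 in MDA-MB-231 (SE 0.09, adjusted p = 0.643) and 0.51 in T47D, or 1.42-fold (SE 0.09, adjusted p = 0.00405). The effects differed by -0.58 (SE 0.13, adjusted p = 0.0134), a difference that no longer passed without T47D shXBP1 replicate 1 (-0.57, adjusted p = 0.0555). Both T47D shCtrl arrays of CCNG1 lay above the MDA-MB-231 arrays of either hairpin, but the difference between the control lines did not pass (-0.14, adjusted p = 0.245).

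Of the CIP/KIP inhibitors in the set, CDKN1C fell in T47D and CDKN1B passed in neither line. CDKN1A, of the same family, is not in the set and is given with the other inhibitors below. CDKN1C (chr11:2883218-2885775), an imprinted gene with low levels in many tumours, read 9.26 and 9.23 on the MDA-MB-231 shXBP1 arrays, against 8.90 and 9.04 on the MDA-MB-231 shCtrl arrays. In T47D, levels of CDKN1C were 6.72 and 6.76 on the T47D shXBP1 arrays, against 7.28 and 7.47 on the T47D shCtrl arrays. In MDA-MB-231 both shXBP1 arrays lay above both shCtrl arrays, and in T47D both lay below. The change was 0.27 in MDA-MB-231 (SE 0.10, adjusted p = 0.112) and -0.63 in T47D, a 1.55-fold fall (SE 0.10, adjusted p = 0.00241). The difference between the lines was 0.91 (SE 0.14, adjusted p = 0.00323).

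The 5 CDKN1C probe sets share a transcript and are not replicates, and 3 of them are of a type that can also bind other transcripts. The 4 brighter ones changed by 0.23 to 0.36 in MDA-MB-231, with 0 calls, and by -0.96 to -0.44 in T47D, where 3 passed and -0.44 did not (adjusted p = 0.0508). The effect differed between the lines on all 4 of these, by 0.70 to 1.33, with adjusted p-values from 0.00450 to 0.0354. The dim probe set changed by -0.38 in MDA-MB-231 and -0.46 in T47D, with no call in either.

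CDKN1B (chr12:12717368-12722369), whose protein holds CDK2 inactive in resting cells and is regulated largely by its turnover, read 9.46 and 9.61 on the MDA-MB-231 shXBP1 arrays, against 9.36 and 9.24 on the MDA-MB-231 shCtrl arrays. It was higher in T47D, at 11.11 and 10.97 on the T47D shXBP1 arrays, against 11.05 and 11.09 on the T47D shCtrl arrays. The T47D groups overlapped, and those of MDA-MB-231 did not. The change was 0.24 in MDA-MB-231 (SE 0.10, adjusted p = 0.163) and -0.03 in T47D (SE 0.10, adjusted p = 0.882). It had 1 probe set.

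The INK4 gene CDKN2D rose in MDA-MB-231 on the brighter of its probe sets. CDKN2D (chr19:10566460-10568979) read 7.02 and 6.72 on the MDA-MB-231 shXBP1 arrays, against 6.18 and 6.12 on the MDA-MB-231 shCtrl arrays. Its T47D levels were 7.02 and 6.97 on the T47D shXBP1 arrays, against 7.01 and 7.02 on the T47D shCtrl arrays, and these overlapped. Of the MDA-MB-231 shXBP1 arrays 1 lay within the T47D range and 1 below it, and the MDA-MB-231 shCtrl arrays were the lowest of the 8. The change was 0.72 in MDA-MB-231, or 1.65-fold (SE 0.11, adjusted p = 0.00448), and -0.03 in T47D (SE 0.11, adjusted p = 0.902), a difference of 0.74 (SE 0.16, adjusted p = 0.0117). The other probe set read 4.95 to 5.27 on the 8 arrays and changed by 0.17 in MDA-MB-231 (adjusted p = 0.410) and 0.03 in T47D (adjusted p = 0.908). With the mean of both, the difference between the lines was 0.44 and did not pass (adjusted p = 0.0678).

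**Figure D2:**
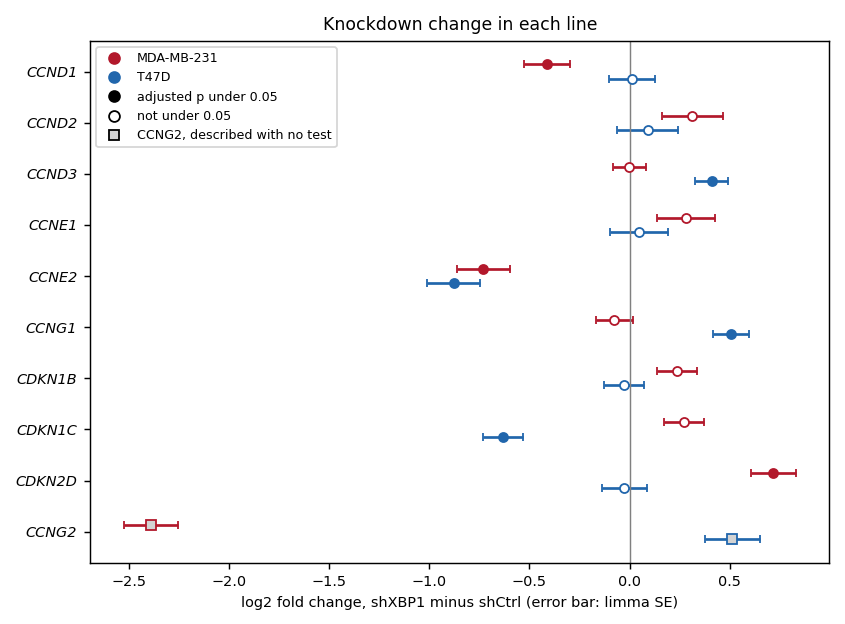
Knockdown change (log2 fold change, shXBP1 minus shCtrl) of the 9 measured genes in MDA-MB-231 (red) and T47D (blue), with limma standard errors. Filled circles have an adjusted p under 0.05, open circles do not, and squares show CCNG2, for which no p-value is used. CCNE2 lies left of 0 in both lines, and CDKN1C lies left of 0 in T47D and right of it in MDA-MB-231.

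In all, 3 of the 9 measured genes were called in MDA-MB-231, 1 higher (CDKN2D) and 2 lower (CCND1 and CCNE2), where 17.2% of all genes were called, 10.6% higher and 6.68% lower. In T47D 4 of 9 were called, 2 higher (CCND3 and CCNG1) and 2 lower (CCNE2 and CDKN1C), against 29.1% of all genes, 15.5% higher and 13.5% lower. The effect differed between the lines for 4 of 9 (CCND3, CCNG1, CDKN1C and CDKN2D), against 24.8% of all genes, with 2 higher and 2 lower in MDA-MB-231 (13% and 11.8% of all genes). These counts exceed the background share by less than 2 genes in each comparison. The median change of the 9 genes was 0.24 in MDA-MB-231 and 0.01 in T47D, beside 0.03 and -0.02 over all genes in the same order. Of the 21 probe sets, 3 were called in MDA-MB-231 (15.8% of all probe sets), with 1 higher (7.8% of all) and 2 lower (8.03%). In T47D 7 were called (24.3% of all), with 2 higher (13.2%) and 5 lower (11%). The change differed between the lines for 6 (21.1% of all), with 5 higher (9.67%) and 1 lower (11.5%) in MDA-MB-231. The probe set calls in MDA-MB-231 were both of CCNE2 and the brighter of CDKN2D.

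**Figure D3:**
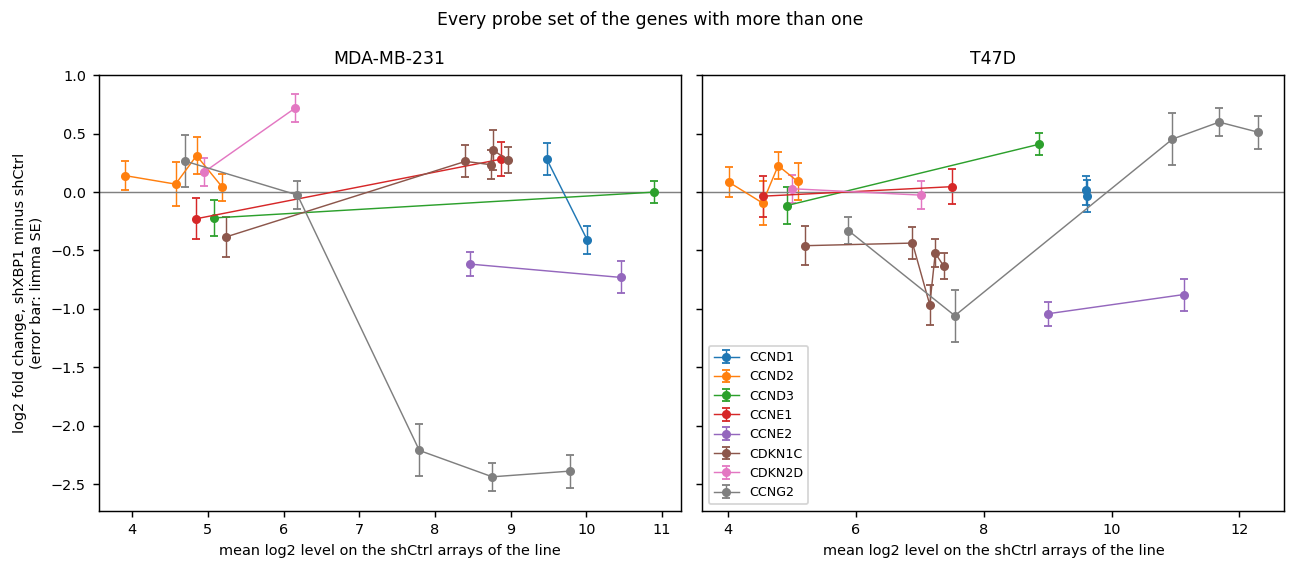
Knockdown change with its limma standard error for every probe set of the genes that have more than 1, against the mean log2 level on the shCtrl arrays of the line. The CCND1 probe sets lie on opposite sides of 0 in MDA-MB-231, both CCNE2 probe sets lie below 0 in both lines, and the 4 brighter CDKN1C probe sets lie above 0 in MDA-MB-231 and below it in T47D.

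The control lines differed in their G1 genes, as they did in 49% of all genes. Of the 9 genes 7 were called, 4 higher and 3 lower in MDA-MB-231 shCtrl, against 23.7% and 25.2% of all genes. CCND3 averaged 10.90 ± 0.0107 in MDA-MB-231 shCtrl and 8.87 ± 0.0363 in T47D shCtrl (SD, n = 2 each), a 4.08-fold higher level in MDA-MB-231 (log2 2.03, SE 0.08, adjusted p = 5.10e-07). CDKN1C was 3.02-fold higher in MDA-MB-231 (log2 1.59, SE 0.10, adjusted p = 4.86e-06) and CCNE1 2.58-fold higher (log2 1.37, SE 0.14, adjusted p = 8.74e-05). CDKN1B went the other way, averaging 9.30 ± 0.0891 in MDA-MB-231 shCtrl and 11.07 ± 0.0280 in T47D shCtrl, a 3.42-fold lower level (log2 -1.77, SE 0.10, adjusted p = 2.64e-06). CDKN2D was 1.82-fold lower and CCNE2 1.59-fold lower in MDA-MB-231 (adjusted p = 0.000292 and 0.00319). CCND1, tested as probe sets, was higher by 0.41 on the brighter (adjusted p = 0.0238), but the other gave -0.13 (adjusted p = 0.488). The dimmer probe sets of CCND3 (0.16, adjusted p = 0.476), CCNE1 (0.28, adjusted p = 0.238) and CDKN2D (-0.06, adjusted p = 0.728) did not pass. Nor did the dimmest of CDKN1C (0.03, adjusted p = 0.919). CCND2 differed by -0.24 on its brightest probe set (adjusted p = 0.253) but by 0.40 on the next (adjusted p = 0.0212). Of the 21 probe sets 12 were called (44.4% of all), with 8 higher (22.8%) and 4 lower (21.6%). The control arrays enter this comparison and the knockdown comparisons alike.

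Genes of DNA replication and mitosis, the later steps that G1 cyclins lead to, mostly fell in T47D and mostly did not pass in MDA-MB-231. Of 17 such genes in MDA-MB-231, 2 rose (AURKA, a mitotic kinase, by 0.72, and RRM2, a subunit of ribonucleotide reductase, by 0.34), 1 fell (TOP2A, by 1.72) and 14 did not pass, a count near the 17.2% of all genes called there. In T47D 13 fell (13.5% of all genes), 0 rose (15.5%) and 4 did not pass, with the topoisomerase gene TOP2A at -3.10, RRM2 at -2.01, the replication licensing gene CDC6 at -1.37 and MCM3, a subunit of the replicative helicase, at -1.15. Those that did not pass there were MCM4 at -0.28, MKI67 at -0.04, PLK1 at -0.03 and CENPF at 0.20 (adjusted p = 0.0519, 0.798, 0.882 and 0.168). The median of the list was -0.08 in MDA-MB-231 and -0.63 in T47D. The effect was higher in MDA-MB-231 than in T47D for 11 of the 17, against 13% of all genes. CCNE2, itself an E2F target, fell in both lines, and the part of a shift in cell cycle phase in that result, and in those of the other cyclins, was not tested.

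Of 8 kinases and regulators of G1, 2 were called in MDA-MB-231 (17.2% of all genes), 1 higher and 1 lower, and 5 in T47D (29.1% of all genes), 2 higher and 3 lower. CDK6, a partner of the D-type cyclins, changed by -0.69 in MDA-MB-231 (adjusted p = 0.0235) and 0.38 in T47D (adjusted p = 0.124), a difference that passed (-1.06, adjusted p = 0.0115). CDC25A, a phosphatase that activates CDK2, rose by 0.59 in MDA-MB-231. CDK2, the partner of the E-type cyclins, changed by 0.11 in MDA-MB-231 (adjusted p = 0.446) and -0.50 in T47D (adjusted p = 0.00293), and WEE1, an inhibitory kinase of CDK1 and CDK2, rose by 1.20 in T47D. Among the subunits of the CDK-activating kinase, CDK7 rose by 0.48 in T47D, while its partners CCNH and MNAT1 fell by 0.48 and 0.41. CDK4 changed by 0.10 and 0.09 in the same order and passed in neither line (adjusted p = 0.532 and 0.524).

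Of 13 pocket protein and E2F genes, 4 were called in MDA-MB-231 (17.2% of all genes), 2 higher and 2 lower, and 7 in T47D (29.1% of all genes), 4 higher and 3 lower. E2F3, an activator of replication genes, changed by -0.49 in MDA-MB-231 (adjusted p = 0.0242) and 1.59 in T47D (adjusted p = 7.27e-05), opposite calls whose difference also passed (-2.08, adjusted p = 0.000243). The repressor gene E2F6 rose by 1.96 in T47D and was at 0.34 in MDA-MB-231 (adjusted p = 0.0742). RB1, the substrate of the D-type cyclin kinases, rose by 0.62 in MDA-MB-231 (adjusted p = 0.0104) and was at -0.21 in T47D (adjusted p = 0.235). Its relative RBL1 fell in both lines, by 0.53 in MDA-MB-231 and 0.72 in T47D. The atypical repressor gene E2F8 rose by 0.89 in MDA-MB-231, and the activator gene E2F2 fell by 0.68 in T47D.

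Of 15 genes for the turnover of G1 cyclins and CDK inhibitors, 2 rose and 0 fell in MDA-MB-231, where 17.2% of all genes were called, and 5 rose and 3 fell in T47D, where 29.1% were. The count in MDA-MB-231 is near the background. FBXW7, the ubiquitin ligase subunit that recognises cyclin E, was at 0.17 in MDA-MB-231 (adjusted p = 0.297) and rose by 1.21 in T47D (adjusted p = 0.000106). CKS2, a CDK-binding protein, rose by 0.68 in MDA-MB-231 and fell by 0.64 in T47D, with a difference of 1.32 (adjusted p = 0.000632). CUL3, a ubiquitin ligase scaffold, rose by 0.52 in MDA-MB-231, and the ubiquitin protease genes USP2 and USP28 rose by 0.89 and 0.79 in T47D.

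Of 17 other cyclin and CDK inhibitor genes, CCNG2 left out, 6 rose (10.6% of all genes) and 1 fell (6.68%) in MDA-MB-231, and 8 rose (15.5%) and 4 fell (13.5%) in T47D. Leaving CCNG2 out was chosen after seeing the data. CDKN2B, the INK4 inhibitor induced by TGF-beta, rose in both lines. It read 8.97 and 8.48 on the MDA-MB-231 shXBP1 arrays, against 7.29 and 7.03 on the MDA-MB-231 shCtrl arrays. Its T47D levels were 7.20 and 7.49 on the T47D shXBP1 arrays, against 5.12 and 5.18 on the T47D shCtrl arrays. These are rises of 2.96-fold (log2 1.57, SE 0.18, adjusted p = 0.00124) in MDA-MB-231 and 4.59-fold (log2 2.20, SE 0.18, adjusted p = 0.000119) in T47D, there against shCtrl levels below the median of all probe sets. The difference between the lines did not pass (-0.63, adjusted p = 0.115). A dimmer CDKN2B probe set changed by 0.32 in MDA-MB-231 (adjusted p = 0.242) and 0.19 in T47D (adjusted p = 0.484). As for CDKN2A, what the CDKN2B probe sets detect on the arrays labelled MDA-MB-231 was not tested. CCNT2, a cyclin of transcription elongation, rose in both lines (1.54-fold in MDA-MB-231 and 2.45-fold in T47D), while its relative CCNT1 changed by -0.65 in MDA-MB-231 and 0.65 in T47D (adjusted p = 0.00313 and 0.00146). CDKN3, a phosphatase that acts on CDK2, fell by 0.95 in T47D and was at 0.15 in MDA-MB-231 (adjusted p = 0.386). The cyclin genes CCNB1 and CCNA2 rose in MDA-MB-231, by 0.50 and 0.40 (adjusted p = 0.0171 and 0.0374). In T47D they fell, by 0.79 and 0.63 (adjusted p = 0.00110 and 0.00286), and both differences passed (adjusted p = 0.000973 and 0.00216). CCNB2 fell by 0.61 in T47D and did not pass in MDA-MB-231 (0.28, adjusted p = 0.0709). The cyclin gene CCNJ rose by 1.35 in T47D. The CIP/KIP inhibitor gene CDKN1A passed narrowly in MDA-MB-231 (0.49, adjusted p = 0.0488) and was at -0.01 in T47D (adjusted p = 0.977). Its difference between the lines did not pass (0.50, adjusted p = 0.109).

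**Figure D4:**
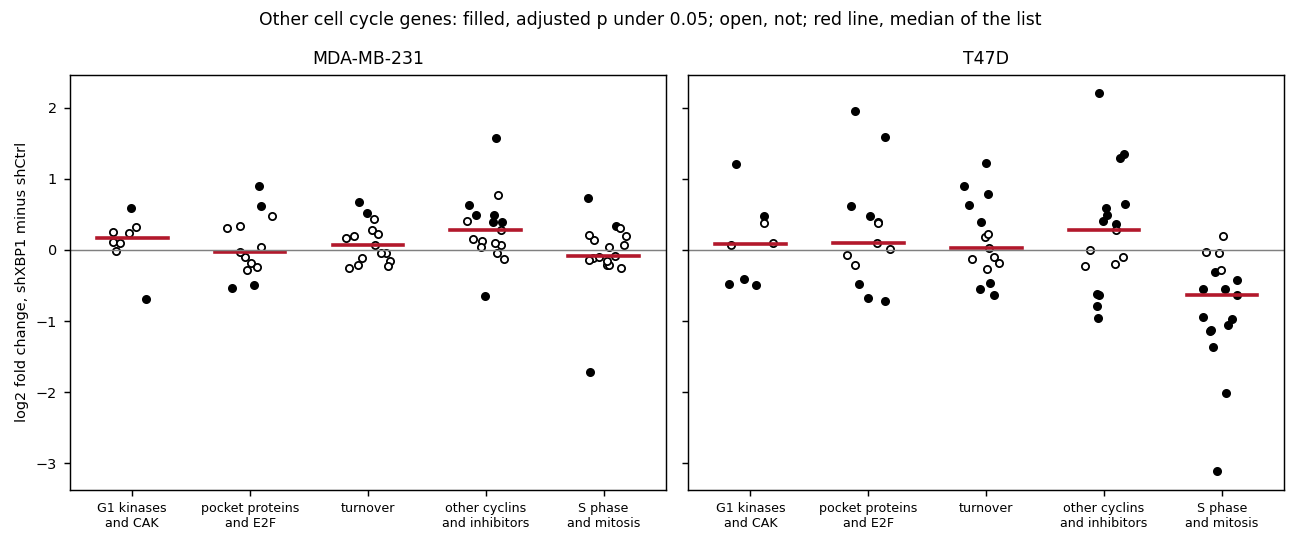
Knockdown change (log2 fold change, shXBP1 minus shCtrl) of other cell cycle genes in MDA-MB-231 (left) and T47D (right), with 1 point per gene, filled where the adjusted p is under 0.05, and a red line at the median of each list. CAK is the CDK-activating kinase, and CCNG2 is not plotted. The S phase and mitosis genes have a median of -0.08 in MDA-MB-231 and -0.63 in T47D.

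As a description, the genes whose levels ran most like 3 of these across the 8 arrays were found by Pearson's r among 7703 or 7704 genes with a range of at least 1 on the log2 scale. For CCNE2 they were BHLHE40, GK5 and RALGAPB (r from 0.984 to 0.987), each lower with shXBP1 in both lines, for example BHLHE40 at -0.66 in MDA-MB-231 and -0.77 in T47D. For CDKN1B they were ZNF664, TUSC3 and HK1 (r of 0.998 each), which also differ between the control lines, TUSC3 for example by -4.05. For CCND1 they were LINC00266-1, KLF9 and ARHGAP18 (r from 0.938 to 0.948). With 8 arrays in 4 groups, such values mainly repeat the order of the 4 group means.

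CCNG2 (chr4:77157207-77170060) was lower with shXBP1 in MDA-MB-231 and higher in T47D, on its brightest probe set, as a description with no test. It read 7.27 and 7.53 on the MDA-MB-231 shXBP1 arrays, against 9.95 and 9.63 on the MDA-MB-231 shCtrl arrays. Its T47D levels were 12.77 and 12.83 on the T47D shXBP1 arrays, against 12.22 and 12.36 on the T47D shCtrl arrays. All 4 T47D arrays lay above all 4 MDA-MB-231 arrays, and the groups did not overlap within either line. The fold was 5.24 lower in MDA-MB-231 (log2 -2.39, SE 0.14) and 1.43 higher in T47D (log2 0.51, SE 0.14). The other bright probe sets gave -2.44 and -2.21 in MDA-MB-231, and 0.60 and 0.45 in T47D. The other 2 did not follow them. On 1 of these the change was -0.03 in MDA-MB-231 and -0.33 in T47D. On the other it was 0.26 in MDA-MB-231 and -1.06 in T47D, where it read 6.49 and 6.49 on the T47D shXBP1 arrays, against 7.49 and 7.61 on the T47D shCtrl arrays, an opposite change on levels above the median of all probe sets. With the mean over all 5 probe sets the change was -1.36 in MDA-MB-231 and 0.0357 in T47D, so that the higher level in T47D rests on the choice of probe set. CCNG1, set beside it, changed by -0.08 in MDA-MB-231 and 0.51 in T47D.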

How the data were processed

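RNA was measured on 8 one-colour Affymetrix arrays of 54675 probe sets, 2 per group. The deposited values are log2 expression, 1 value per probe set and array, made by RMA in the affy package (version 1.30.0) per the submitters' processing notes. How the authors grouped arrays for RMA was not given in the sources used here. RMA compresses folds of dim probe sets, and no detection calls were given. Values were used as deposited. Probe sets were named through the platform annotation table: 41091 carried 1 symbol, 1801 several, 11721 were unnamed and 62 were controls. Symbols were checked against RefSeq by gene identifier, which changed 0, and 42 identifiers had no match. Each gene was represented by its probe set with the highest mean.

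The 4 group means were fitted together in R 4.3.3 with limma 3.58.1 (lmFit, eBayes), with 4 residual degrees of freedom (7.61 after moderation). Tests were two-sided, adjusted by Benjamini-Hochberg over all 19775 genes or, for probe sets, over all 41091, and called at an adjusted p under 0.05. No exact permutation test of 2 against 2 arrays can give a p below 0.333. The analysis was tested on simulated data. The median SE of a knockdown change was 0.119. Motifs were searched with Python 3.11.15. All genes of the set are named, and of each other list up to 4 called genes with the largest change per knockdown. CDKN1A, CDKN2A, CDK4, MNAT1, CCNA2, CCNB1, CCNB2, MCM4, MKI67, PLK1 and CENPF were named after their values were seen. So were, in MDA-MB-231, CDK2, E2F6, FBXW7 and CDKN3. The genes and lists were chosen with earlier results of these data known.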

Additional observations from a re-analysis of the deposited data

Results flagged for a closer look

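The test of the difference itself (change in MDA-MB-231 minus change in T47D, limma, adjusted over all genes) called 4 of the 9 genes. It called 24.8% of all genes, so the count exceeds the background share by less than 2 genes. CDKN1C had a difference of 0.91 (adjusted p = 0.00323), higher on both arrays in MDA-MB-231 and lower on both in T47D. CDKN2D had a difference of 0.74 (adjusted p = 0.0117), with a rise in MDA-MB-231 and overlapping groups in T47D. CCNG1 had a difference of -0.58 (adjusted p = 0.0134) and CCND3 one of -0.41 (adjusted p = 0.0386), both with a rise in T47D. With the mean over probe sets CDKN1C remained, while CCND3 (adjusted p = 0.252) and CDKN2D (adjusted p = 0.0678) did not pass. CCNG1 also kept its call, but it has 1 probe set, so this mean could not change its values. CCND3 lost its call in 10 of 14 alternatives, and CCNG1 without T47D shXBP1 replicate 1 (adjusted p = 0.0555). With 2 arrays per group, no group could be checked for a deviating array.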

How the results depend on the processing

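Of 518 values of the 9 genes under 15 alternatives, 470 kept their direction and side of the threshold, 29 lost a call, 2 gained one and 17 changed sign. Each sign change was of a value with no call. Many of the 518 values could not change sign. The replicate block, the filter on dim genes, the trended, robust moderation and the arrays of 1 line alone leave the estimate as it was. So does leaving out an array that is not in the comparison, and, for CCNG1 and CDKN1B with 1 probe set each, the mean over probe sets. There only the call could change. With the mean over probe sets the T47D change was -0.0101 for CCND1 and 0.00139 for CDKN2D, and the control lines differed by 0.0191 in CCND2. With quantile normalization applied again the T47D change was -0.0174 for CCND1, -0.0203 for CCNE1 and 0.0265 for CDKN1B, and the MDA-MB-231 change 0.0252 for CCND3. With centred arrays CCND1 in T47D was at -0.000565. Without 1 array, the T47D change ran from -0.0802 to 0.11 for CCND1, -0.11 to 0.29 for CCND2, -0.12 to 0.22 for CCNE1 and -0.0968 to 0.0416 for CDKN1B. In MDA-MB-231 it ran from -0.0383 to 0.0380 for CCND3, and the difference between the lines from -0.0339 to 0.33 for CCNE2. The CCND3 call in T47D was lost without T47D shXBP1 replicate 2 (adjusted p = 0.0566). The CCND1 difference between the lines passed with trended, robust moderation (adjusted p = 0.0277). CCND2 lies under the filter on dim genes and gave no value there.

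The number of genes called in MDA-MB-231, 3410, was 1897 with only the arrays of that line and 2063 to 2931 without 1 array, lowest without MDA-MB-231 shCtrl replicate 1 and 2152 without MDA-MB-231 shXBP1 replicate 1. The number of the 9 genes that differed between the lines, 4, was 2 with the mean over probe sets and 2 to 4 without 1 array, with 2 left without T47D shXBP1 replicate 1. Among the lists, the S phase and mitosis genes called in MDA-MB-231, 3, were 7 with trended, robust moderation and 6 without dim genes, and those called in T47D, 13, were 12 to 14 without 1 array. Calls in MDA-MB-231 ran from 0 to 4 for the G1 kinases (2 as reported), 2 to 5 without 1 array for the pocket protein and E2F genes (4), 1 to 5 for the turnover genes (2) and 3 to 6 without 1 array for the other cyclins and inhibitors without CCNG2 (7), and the G1 kinases called in T47D, 5, were 3 without any 1 T47D array. The higher CCND1 level of the MDA-MB-231 controls was not called with the mean over probe sets (0.14, adjusted p = 0.348) or in 3 of the fits without 1 control array. Replicate numbers did not pair the arrays (correlations of same-numbered deviations from -0.0690 to 0.0381). With the number as a replicate block, 2941 genes were called in MDA-MB-231 and 5421 in T47D, and among the 9 genes the block ended the CCND1 call in MDA-MB-231 (adjusted p = 0.0689) and the CCND3 difference (adjusted p = 0.0594). The causes were not tested.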

Other observations

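CDKN2A is a gene that MDA-MB-231 is known to have lost, and its values were looked up after the main results were seen. A probe set of it read 11.36 and 11.39 on the MDA-MB-231 shXBP1 arrays, 11.57 and 11.58 on the MDA-MB-231 shCtrl arrays, 7.54 and 7.66 on the T47D shXBP1 arrays and 7.39 and 7.42 on the T47D shCtrl arrays. A brighter one, of a type that can bind other transcripts, read 12.33 and 12.22, 12.32 and 12.33, 9.59 and 9.63 and 9.62 and 10.01 in the same order. A dim one read 6.22 and 5.35, 5.50 and 5.50, 5.59 and 5.22 and 5.70 and 5.83. What these probe sets detect, and the identity of the cells beyond the markers given above, were not tested.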
